A study of Rattus norvegicus with 9 samples.

Results

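The calcium/calmodulin-dependent kinases described here are 10 genes, taken by symbol from an RNA-seq table of 32623 entries measured in rat primary cortical neurons. They are the 4 CaMKII subunits (Camk2a, Camk2b, Camk2d and Camk2g), the 3 CaMKI genes Camk1, Camk1d and Camk1g, the CaMKIV gene Camk4, and the 2 upstream kinases Camkk1 and Camkk2. Each symbol had 1 entry, and all 10 passed the filter on low counts that left 16284 entries for testing.

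The neurons came from Wistar rat embryos of embryonic day 16 to 18, were labelled wild type (WT) and day 7 in vitro (DIV 7), and formed 3 groups of 3 libraries. The study grew its neurons on glass coated with indium tin oxide (ITO), a transparent conductor. Control neurons received no current. The direct current stimulation (DCS) group, which the labels call DES, and the alternating current stimulation (ACS) group received 3 µA for 20 min, with 7 days in the labels. The labels add 20 Hz for both groups. The paper names this frequency for alternating current. The labels name poly-L-lysine-coated plates kept until day 14 in vitro. Nothing in the labels places the 3 libraries of a group in separate cultures, so the p-values measure the spread between these libraries, which may be technical.

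Calmodulin is a small calcium sensor that binds and switches on these kinases when calcium enters a neuron. CaMKII assembles into large rings of mixed subunits and is known in cortex for its abundance at excitatory synapses and its part in long-term potentiation. CaMKK phosphorylates and activates CaMKI, which acts in dendrite and axon growth, and CaMKIV, which acts mainly in the nucleus on transcription factors such as CREB.

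In these cultures Camk2b RNA exceeded that of each of the other 9 kinases in all 9 libraries, and Camk2a was a small share of the RNA of the 2 genes. No kinase differed between groups at an adjusted p under 0.05 in edgeR fitted over all 9 libraries. DESeq2 called Camk2g between ACS and DCS, where it called 650 entries in all. Camk2g showed the widest differences, lower under ACS than under DCS in every library, but it also varied within the control group. Beyond the 10 kinases, the pseudokinase gene Camkv and the deacetylase gene Hdac5 rose under ACS against control, and the kinase phosphatase gene Ppm1e and the transcription factor gene Creb1 fell. They were 4 of 63 tested pathway entries (6.35%), where 4.16% of all tested entries passed. The pathway lists were chosen with earlier results of these data known. For Hdac5 the DCS libraries also lay above the control. Of 21 alternative fits, the call was kept in 20 for Camkv, 14 for Ppm1e, 10 for Creb1 and 7 for Hdac5, and none of the 4 was kept without control 2.

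The stretches of promoter below come from RefSeq (GRCr8) and are shown for the kinase with the highest RNA level (Camk2b), the kinase with the widest differences (Camk2g), the kinase whose printed bases hold the letters TGACG (Camkk1), and the pathway gene with the smallest p-value under ACS (Camkv). Each window runs from 250 bases before to 50 after a start listed in RefSeq, which can lie inside the gene's span. The stretch printed is the part of the window that lies upstream of that span. It is written 5′ to 3′ on the gene's strand, and capitals mark TGACG, the core of the cyclic AMP response element (CRE) bound by CREB. Camk2b is at chr14:85148122-85148194 on the minus strand. Camk2g is at chr15:3553106-3553237, Camkk1 at chr10:58135685-58135871 and Camkv at chr8:117505189-117505438, all on the plus strand.
Camk2b: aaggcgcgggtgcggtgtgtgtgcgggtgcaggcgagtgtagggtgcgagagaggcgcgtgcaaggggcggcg
Camk2g: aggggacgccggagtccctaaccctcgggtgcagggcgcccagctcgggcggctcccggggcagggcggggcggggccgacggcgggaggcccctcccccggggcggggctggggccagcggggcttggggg
Camkk1: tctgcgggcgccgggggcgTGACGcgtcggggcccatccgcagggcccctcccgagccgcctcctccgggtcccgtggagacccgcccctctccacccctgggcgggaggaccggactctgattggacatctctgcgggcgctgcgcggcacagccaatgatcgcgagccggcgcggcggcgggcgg
Camkv: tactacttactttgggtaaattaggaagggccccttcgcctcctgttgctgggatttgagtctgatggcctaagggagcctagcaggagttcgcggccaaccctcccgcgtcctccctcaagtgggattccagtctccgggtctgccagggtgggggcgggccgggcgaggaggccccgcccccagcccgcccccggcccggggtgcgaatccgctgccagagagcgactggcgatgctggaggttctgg

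Windows were found for 8 of the 10 kinases and for all 4 of the pathway genes called below. The 300-base window of Camk2b was 81.3% G and C with 59 CpG, that of Camk2g 80.0%, and that of Camkk1 78.7%. Camk2d followed at 74.7%, Camk2a at 61.3% with 12 CpG and Camk1 at 60.0%. Those of Camk1g (47.7%, 1 CpG) and Camk4 (45.7%, 0 CpG) lay below the median of 51.7% over 33469 rat windows. The subunit with the highest RNA level and the subunit with the lowest thus had a similar share of G and C in their windows, but not of CpG.

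On both strands, none of the 8 windows held the full CRE (TGACGTCA), the AP-1 letters TGACTCA or TGAGTCA, or the EGR letters GCGTGGGCG or GCGGGGGCG. These were found in 1.83%, 4.63% and 3.20% of all windows. The shorter TGACG, which the full CRE contains, occurred in 21.2% of all windows. It was found at 2 places in Camk2a, 150 and 92 bases before the start that sets the window. Camk1 (193 before) and Camkk1 (231 before) held it at 1 place each. The windows of Camk2a and Camk1 lay inside the gene's span, with no bases upstream of it. Among the called pathway genes, the window of Creb1 held TGACG at 3 places and that of Hdac5 at 2, the window of Ppm1e held EGR letters at 1 place, and that of Camkv held none of these. These are matches of letters in a window and not sites of binding.

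RNA levels are given as FPKM, fragments per kilobase of exon scaled to library size, which allows genes of different length to be set side by side. Differences between groups are log2 fold changes from an edgeR quasi-likelihood F test on the estimated counts, fitted over all tested entries and adjusted by the Benjamini-Hochberg method. Camk2b stood first with a mean of 122 ± 7.48 FPKM (SD, n = 9 libraries), above 96.8% of tested entries. Camk1 was second at 19.9 ± 1.14 FPKM. Camkk2 (15.5 ± 0.842), Camk4 (15.3 ± 0.722), Camk2a (12.6 ± 1.39), Camk1g (10.4 ± 0.784), Camkk1 (10.1 ± 0.611) and Camk2d (9.20 ± 0.635 FPKM) came next. The ranges of neighbours in this middle stretch overlapped, and Camkk2 exceeded Camk4 in only 6 of the 9 libraries. Camk1d (6.66 ± 0.457 FPKM) and Camk2g (3.11 ± 1.71 FPKM) came last, and their ranges overlapped neither each other nor those of the genes above.

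**Figure D1:**
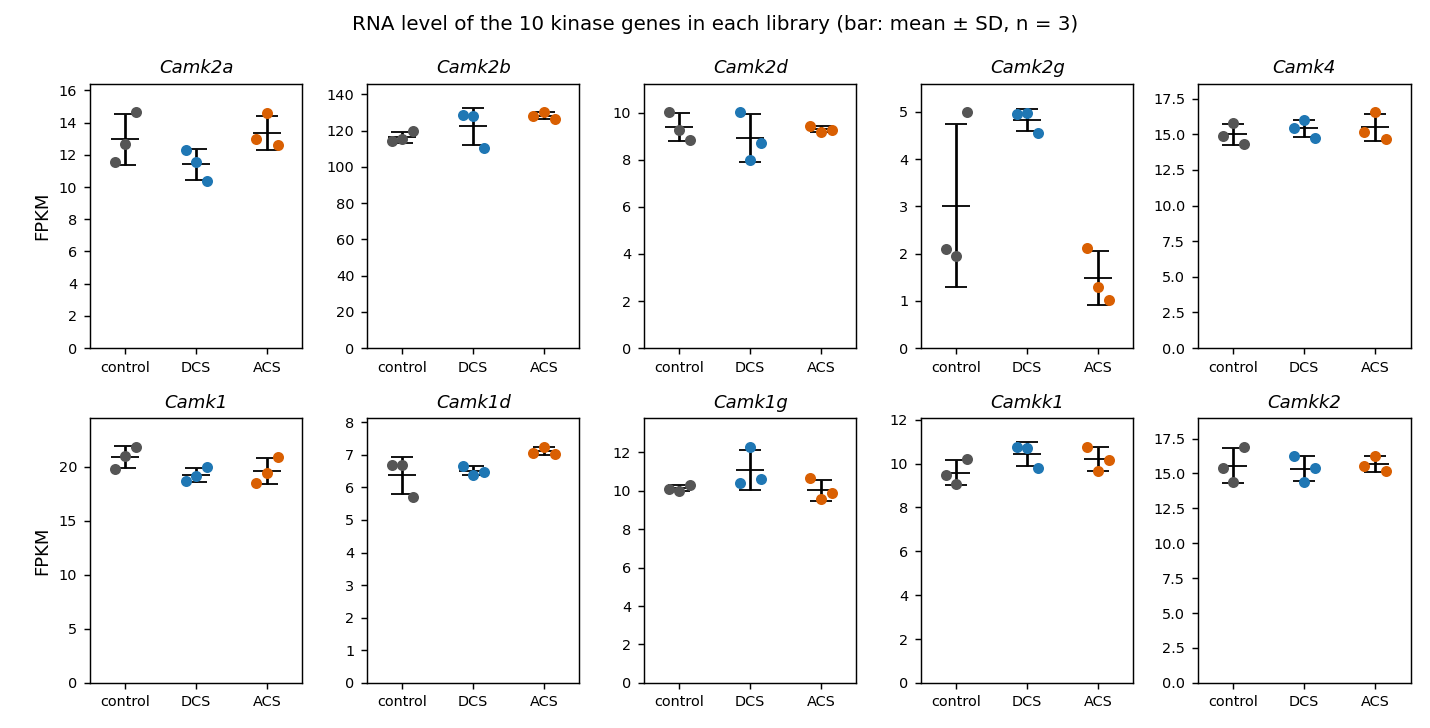
FPKM of each kinase gene (vertical axes, each from 0 and with its own scale) in the control, DCS and ACS groups. Points are single libraries and the bars give the mean ± SD of 3 libraries. Camk2g sits near 5 FPKM in control 3 and all DCS libraries and at 2.12 FPKM or less in the others, while the other 9 genes vary little.

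The cultures carried the defining RNAs of neurons. The summed FPKM of 6 neuronal markers ranged from 1998 to 2242, led by Tubb3 and Stmn2. Interneuron markers (led by Sst and Dlx1) summed to 205 to 251 FPKM, astrocyte markers (Slc1a3 and Aldoc) to 200 to 277, oligodendrocyte lineage markers (Olig1 and Olig2) to 179 to 209, and markers of progenitors and dividing cells (Sox2 and Top2a) to 105 to 128. Microglial markers (Csf1r and Aif1) summed to 45.4 to 50.0 FPKM, and those of fibroblasts (Pdgfrb and Col1a1) and endothelial cells (Cdh5 and Tek) to no more than 3.23 and 0.628. In bulk RNA, fewer cells of a type and less RNA per cell cannot be told apart. The summed estimated counts ranged from 49039412 to 68690760 per library.

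Camk2a (chr18:56193978-56295869, plus strand; the table of values names no genome build for its positions) encodes the alpha subunit, which dominates CaMKII in the adult forebrain. Its level was 11.6, 12.7 and 14.7 FPKM in control 1 to 3, 12.3, 11.5 and 10.4 in DCS 1 to 3, and 13.0, 14.6 and 12.6 in ACS 1 to 3. The ACS libraries all lay above the DCS libraries, and both groups overlapped the control. Against DCS the log2 fold change under ACS was 0.25 (95% interval 0.014 to 0.49, unadjusted p = 0.0401, adjusted p = 0.334). It was 0.06 for ACS against control (interval -0.18 to 0.30, adjusted p = 0.796) and -0.19 for DCS against control (interval -0.43 to 0.046, adjusted p = 0.706).

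Camk2b (chr14:86208901-86297652, minus strand) encodes the beta subunit, which binds actin and appears earlier in development than alpha. Its level was 114, 115 and 120 FPKM in control, 128, 128 and 110 in DCS, and 128, 130 and 127 in ACS, with little spread within the control and ACS groups. The 3 ACS libraries all exceeded the 3 control libraries. The log2 fold change for ACS against control was 0.15 (interval 0.020 to 0.29, unadjusted p = 0.0282, adjusted p = 0.177), a ratio of 1.11. With DCS 3, the DCS library with the lowest level, left out of the shared fit, the adjusted p was 0.0363. That was the only 1 of 21 alternative fits to pass, and in the others the adjusted p reached 0.367. DCS overlapped the control (log2 fold change 0.06, interval -0.071 to 0.20, adjusted p = 0.816), and ACS differed from DCS by 0.09 (interval -0.043 to 0.23, adjusted p = 0.552).

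Camk2d (chr2:230901126-231132039, plus strand) encodes the delta subunit, best known from heart. It ranged from 8.85 to 10.03 FPKM in control, from 8.01 to 10.03 in DCS and from 9.20 to 9.44 in ACS. Its 3 groups overlapped, and its log2 fold changes lay between -0.08 and 0.08 in the 3 comparisons. The ACS value against control was 0.00074 (interval -0.19 to 0.19, adjusted p = 0.997).

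Camk2g (chr15:3936786-3995915, plus strand) encodes the gamma subunit, known for carrying calcium/calmodulin to the nucleus. Its level was 2.10, 1.94 and 5.00 FPKM in control, 4.95, 4.97 and 4.56 in DCS, and 2.12, 1.29 and 1.03 in ACS. The control group thus held both low and high libraries. Control 3 was at the level of the DCS libraries, and control 1 and 2 were at or near the highest ACS library. The estimated counts behind these levels were 714, 841 and 2016 in control, 1635, 1808 and 1967 in DCS, and 687, 400 and 345 in ACS.

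Every ACS library had less Camk2g RNA than every DCS library. The log2 fold change for ACS against DCS was -1.68 (SE 0.36, interval -2.49 to -0.87), a ratio of 0.312, with an unadjusted p of 0.000998 and an adjusted p of 0.0786. ACS against control gave -1.01 (SE 0.36, interval -1.81 to -0.20, unadjusted p = 0.0191, adjusted p = 0.146), and DCS against control gave 0.67 (interval -0.11 to 1.46, unadjusted p = 0.0860, adjusted p = 0.699). ACS overlapped the control through control 1 and 2, and DCS overlapped it through control 3. Control 3 set much of the size of the comparisons with control. Without it, ACS against control gave -0.44 (adjusted p = 0.318), DCS against control gave 1.24 (adjusted p = 0.0698), and ACS against DCS stayed at -1.68 with an adjusted p of 0.0156. With DESeq2 it was 0.00645, with the 6 ACS and DCS libraries alone 0.0324, and among entries with a gene symbol alone 0.0419. These were the 4 of 21 alternative fits of ACS against DCS that passed. In the others the adjusted p reached 0.228.

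The spread of Camk2g was wide within the control and ACS groups. Within the control group the SD of its log2 CPM was 0.74, larger than that of 98.5% of 13049 entries with a mean count of at least 100. The SD was 0.54 in ACS (larger than 97.3%) and 0.085 in DCS (larger than 44.9%). The entry NEWGENE_1304700, which begins 132 bases downstream of Camk2g on the same strand, was likewise uneven. It was listed at 0 in control 1, control 3, DCS 1 and ACS 2 and at 2.85 to 3.45 FPKM in the other 5 libraries, so its zeros did not follow the high and low libraries of Camk2g. Whether reads were divided between these neighbours was not tested.

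The 4 CaMKII genes together summed to 142 ± 5.71 FPKM in control, 147 ± 11.7 in DCS and 152 ± 3.00 in ACS (SD, n = 3 each). Camk2b made up 82.1% ± 1.18 of this sum in control, 82.9% ± 0.877 in DCS and 84.2% ± 0.457 in ACS. Camk2d made up 6.63%, 6.06% and 6.10% and Camk2g 2.10%, 3.28% and 0.970% in the same order. Camk2a was 10.002% ± 0.857 of the alpha plus beta RNA in control, 8.53% ± 0.251 in DCS and 9.44% ± 0.541 in ACS. All 3 DCS libraries had a lower alpha share, from 8.26% to 8.74%, than any control (9.19% to 10.9%) or ACS library (9.06% to 10.1%). These shares are descriptions over the members and were not tested.

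**Figure D2:**
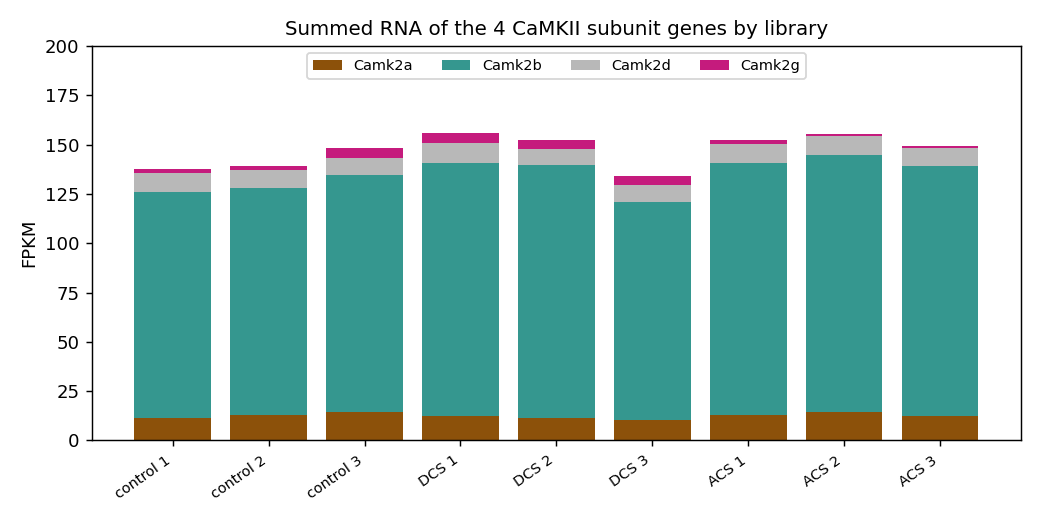
Summed FPKM of the 4 CaMKII subunit genes in each of the 9 libraries, with bars from 0 divided by gene. Camk2b fills over 80% of every bar, and the Camk2g segment at the top is thickest in control 3 and DCS 1 to 3.

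Camkk1 and Camkk2 stand upstream, and their summed level was 25.1 ± 1.84 FPKM in control, 25.8 ± 1.08 in DCS and 25.9 ± 0.489 in ACS. Camkk1 (chr10:59585072-59608165, plus strand) encodes CaMKK alpha and lay at 9.47, 9.07 and 10.2 FPKM in control, 10.8, 10.7 and 9.79 in DCS, and 10.8, 9.66 and 10.2 in ACS. The span of Camkk1 falls within that of Itgae on the same strand, an entry with a mean of 1.57 FPKM, so reads of the shared bases are uncertain. Camkk2 (chr12:39253409-39302601, plus strand) encodes CaMKK beta, which also activates AMP-activated kinase, and lay at 15.4, 14.4 and 16.9 FPKM in control, 16.2, 14.4 and 15.4 in DCS, and 15.5, 16.3 and 15.2 in ACS. The groups overlapped for both genes in every comparison. For Camkk1 the log2 fold change was 0.10 under ACS (interval -0.051 to 0.26, adjusted p = 0.431) and 0.11 under DCS (interval -0.044 to 0.27, adjusted p = 0.725). For Camkk2 it was 0.02 (interval -0.14 to 0.19, adjusted p = 0.887) and -0.03 (interval -0.19 to 0.13, adjusted p = 0.935).

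The 3 CaMKI genes summed to 37.4 ± 0.692 FPKM in control, 36.9 ± 1.06 in DCS and 36.7 ± 0.894 in ACS. Camk1 (chr4:145288996-145300177, minus strand) encodes CaMKI alpha and lay at 19.8, 21.0 and 21.9 FPKM in control, 18.7, 19.1 and 20.0 in DCS, and 18.5, 19.4 and 20.9 in ACS. In FPKM both stimulated groups overlapped the control, while in TMM-scaled CPM every DCS library lay below every control library. The log2 fold change under DCS was -0.13 (interval -0.26 to 0.0024, unadjusted p = 0.0536, adjusted p = 0.695), and under ACS it was -0.08 (interval -0.21 to 0.053, adjusted p = 0.490). The span of Camk1 overlaps that of Ogg1 on the opposite strand by 331 bases. The kit marks strand, but whether counting used it is not given in the sources used here.

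Camk1d (chr17:76532611-76938956, plus strand) encodes CaMKI delta and lay at 6.70, 6.70 and 5.70 FPKM in control, 6.65, 6.39 and 6.47 in DCS, and 7.04, 7.25 and 7.03 in ACS. The ACS libraries all lay above those of both other groups. The log2 fold change was 0.17 against control (interval 0.0056 to 0.34, unadjusted p = 0.0441, adjusted p = 0.225) and 0.15 against DCS (interval -0.016 to 0.32, adjusted p = 0.408). Camk1g (chr13:112075690-112099336, minus strand) encodes CaMKI gamma, a lipid-anchored form of neurons, and lay at 10.1, 10.01 and 10.3 FPKM in control, 10.4, 12.3 and 10.6 in DCS, and 10.6, 9.56 and 9.86 in ACS. Its DCS libraries lay above its controls, with a log2 fold change of 0.12 (interval -0.059 to 0.30, adjusted p = 0.737), while ACS against control gave -0.0022 (interval -0.18 to 0.18, adjusted p = 0.991).

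Camk4 (chr18:25749098-25965957, plus strand) encodes CaMKIV and varied little. It lay at 14.9, 15.8 and 14.3 FPKM in control, 15.4, 16.0 and 14.8 in DCS, and 15.2, 16.6 and 14.7 in ACS, so each group spanned nearly the same range. The log2 fold change was 0.06 under ACS (interval -0.098 to 0.22, adjusted p = 0.675) and 0.03 under DCS (interval -0.13 to 0.19, adjusted p = 0.932). The intervals thus reached no further than 0.22 in either direction.

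**Figure D3:**
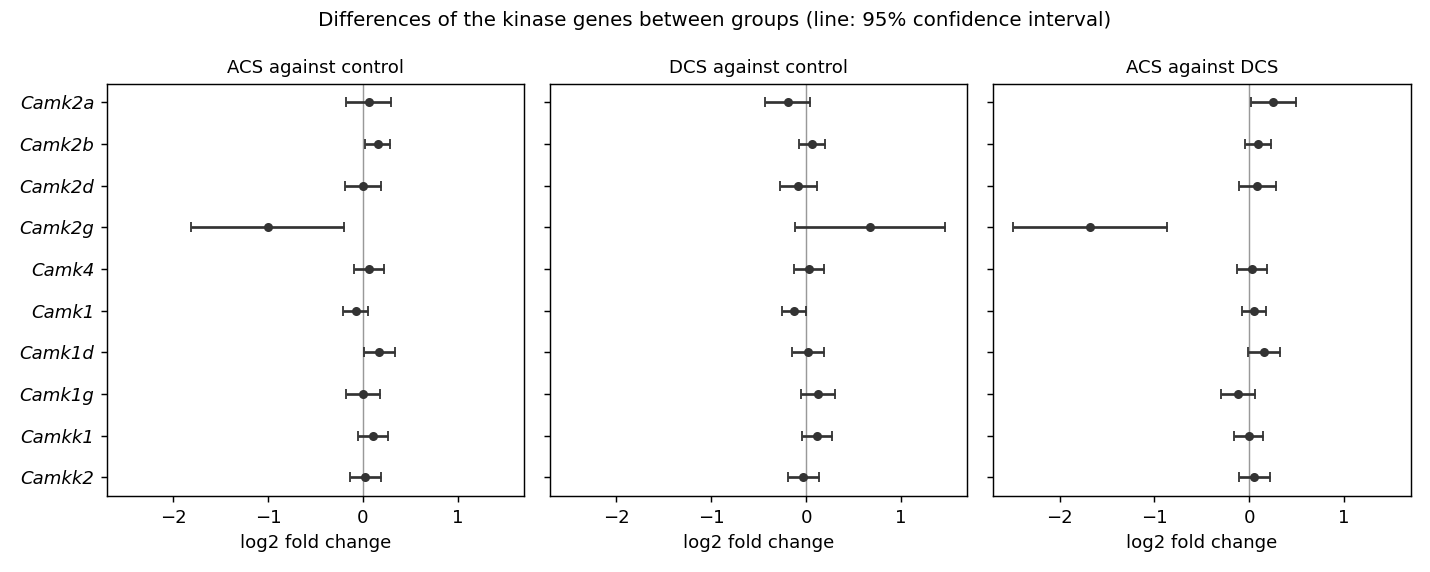
Log2 fold changes (horizontal axes) of the 10 kinase genes in ACS against control, DCS against control and ACS against DCS. Points are edgeR estimates and lines are 95% confidence intervals. Camk2g has by far the widest intervals and the estimates farthest from 0 (-1.01, 0.67 and -1.68), and the other 9 genes lie between -0.19 and 0.25.

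Counted together, 0 of the 10 kinases passed an adjusted p of 0.05 in edgeR in ACS against control, where 4.16% of all tested entries did. The count was also 0 in DCS against control (0.0123% of all) and in ACS against DCS (0.633% of all). DESeq2 called 0, 0 and 1 in the 3 comparisons, the latter being Camk2g, beside 1652, 38 and 650 of all entries. At an unadjusted p under 0.05 the counts were 3 (Camk2g, Camk1d and Camk2b), 0, and 2 (Camk2g and Camk2a), beside 20.8%, 7.09% and 13.9% of all entries. At the thresholds the study states, an unadjusted p under 0.05 and over 2-fold, Camk2g passed in ACS against control and in ACS against DCS, where 1.47% and 1.03% of all entries did. The former pass lay just past 2-fold (-1.01) and was lost without control 3 (-0.44), ACS 2 (-0.91) or ACS 3 (-0.80). No kinase passed them in DCS against control (0.571% of all).

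Groups did not overlap for 2, 2 and 3 kinases in the 3 comparisons, beside 27.1%, 11.1% and 21.4% of all entries. The median absolute log2 fold change of the 10 kinases was 0.069 in ACS against control, where that of all tested entries was 0.15. It was 0.098 beside 0.10 in DCS against control, and 0.088 beside 0.12 in ACS against DCS. As these comparisons share libraries, their values are given side by side and not as separate evidence.

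Around the kinases, 65 names of the calcium/calmodulin pathway were listed in 7 groups by role. The table held 63 of the names in 64 entries, since Calm2 had 2, and 63 entries were tested. Of these, 4 passed in ACS against control (6.35%), 2 higher (2.83% of all tested entries) and 2 lower (1.33% of all), 0 in DCS against control and 2 in ACS against DCS (3.17%), 1 higher (0.51% of all) and 1 lower (0.123% of all). At an unadjusted p under 0.05 the counts were 18 (28.6%), 3 (4.76%) and 15 (23.8%), beside 20.8%, 7.09% and 13.9% of all entries. DESeq2 called 14, 0 and 6 of them, and 1652, 38 and 650 of all entries. Over the 63 entries the median log2 fold change was 0.05 in ACS against control and 0.02 in DCS against control.

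Among 9 other tested kinases of the family, 1 rose and 0 fell under ACS, beside 2.83% and 1.33% of all tested entries. Their median log2 fold change was 0.15. Camkv encodes a calmodulin-binding pseudokinase of synapses without catalytic activity. Its normalised counts (CPM, scaled to library size) were 150, 146 and 157 in control, 157, 160 and 149 in DCS, and 189, 179 and 189 in ACS. All ACS libraries stood above the other 6. Camkv rose by 0.30 on the log2 scale against control (adjusted p = 0.00978) and by 0.25 against DCS (adjusted p = 0.0450), while DCS against control gave 0.04 (adjusted p = 0.843). Without control 2 the adjusted p against control was 0.0564. Pnck, the CaMKI beta gene, chosen after its values were seen, had 6.39 ± 0.859 CPM in ACS and 3.94 ± 0.511 in control, a log2 fold change of 0.70 (adjusted p = 0.0536).

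Calmodulin supply was represented by 8 tested entries, of which 0 passed in any comparison in edgeR. The median log2 fold change under ACS was 0.12. Marcks, a membrane protein that holds calmodulin until calcium rises, gave 0.21 (adjusted p = 0.108). Gap43, the growth cone protein that also binds calmodulin, gave 0.17 (adjusted p = 0.168). The ACS and control groups did not overlap for either gene, as for 27.1% of all entries. The 2 entries named Calm2 may be near-identical copies, so their split of reads is uncertain.

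Of 6 inhibitors and phosphatases that act on these kinases, 1 fell and 0 rose under ACS, beside 1.33% and 2.83% of all tested entries. Ppm1e encodes a nuclear phosphatase that removes activating phosphates from CaMKII and CaMKIV. It lay at 85.7, 81.7 and 84.3 CPM in control, 80.4, 78.2 and 82.4 in DCS, and 72.9, 71.2 and 73.9 in ACS. The ACS libraries were the lowest of the 9. Ppm1e fell by 0.21 on the log2 scale against control (adjusted p = 0.0305), and ACS against DCS gave -0.14 (adjusted p = 0.169). The call was kept in 14 of 21 alternative fits. It was lost without control 1, control 2, DCS 1 or any ACS library, where the adjusted p reached 0.120.

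Among 12 nuclear and metabolic targets, 1 rose and 1 fell under ACS, beside 2.83% and 1.33% of all tested entries. Creb1, the CREB transcription factor that CaMKIV phosphorylates, lay at 23.6, 21.4 and 21.4 CPM in control, 23.5, 23.4 and 24.2 in DCS, and 15.9, 19.1 and 16.6 in ACS. The ACS libraries lay below the other 6. Creb1 fell by 0.36 against control (adjusted p = 0.0456) and by 0.46 against DCS (adjusted p = 0.0491) on the log2 scale. Hdac5, a class IIa histone deacetylase that leaves the nucleus when phosphorylated by these kinases, lay at 132, 140 and 148 CPM in control, 154, 161 and 153 in DCS, and 159, 162 and 163 in ACS. Both stimulated groups lay above the control. Hdac5 rose by 0.20 under ACS (adjusted p = 0.0484), DCS against control gave 0.16 (unadjusted p = 0.00919, adjusted p = 0.692), and ACS differed from DCS by 0.05 (adjusted p = 0.737).

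The calls on Creb1 and Hdac5 against control were kept in 10 and 7 of 21 alternative fits, and that on Camkv in 20. With 1 library left out, Creb1 kept its calls against control and against DCS only when that library was control 3 or ACS 2, and its adjusted p against control reached 0.162. Among the same fits Hdac5 kept its call only without control 3, and its adjusted p reached 0.155. The call of Camkv against DCS was kept in 7 of 21 alternative fits, and that of Creb1 against DCS in 10. With 1 library left out, Camkv kept its call against DCS only without control 3, with an adjusted p of up to 0.182.

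The other 3 roles held no called entry in any comparison. Of 8 calcineurin subunits and regulators, the calcium-activated phosphatase that opposes these kinases, the median log2 fold change under ACS was -0.06, with -0.12 for the regulatory subunit Ppp3r1 (adjusted p = 0.270) and -0.13 for its regulator Rcan1 (adjusted p = 0.302). Of 11 anchors and synaptic substrates, the median was 0.10. The scaffold gene Shank3 gave 0.27 (adjusted p = 0.0530) and the NMDA receptor subunit gene Grin1 gave 0.23 (adjusted p = 0.0543). Of 9 other calmodulin-dependent enzymes, the median was 0.10, with 0.46 for the phosphodiesterase gene Pde1a (adjusted p = 0.156) and 0.24 for the adenylyl cyclase gene Adcy1 (adjusted p = 0.302).

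**Figure D4:**
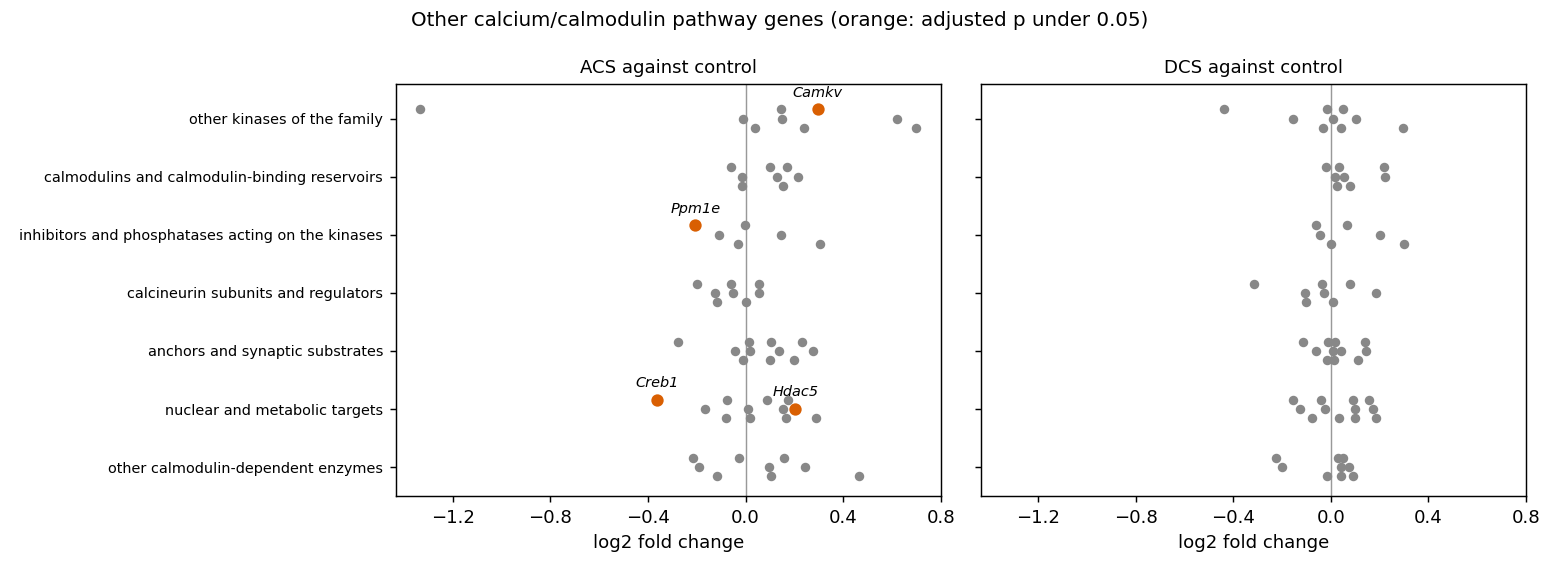
Log2 fold changes (horizontal axes) of the 63 tested pathway entries, grouped by role, in ACS against control and DCS against control on the same scale. Each point is an entry, and orange points passed an adjusted p of 0.05 in edgeR (Camkv and Hdac5 higher, Ppm1e and Creb1 lower under ACS, and none under DCS).

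Some markers of cell types moved with ACS as well. Of the neuronal markers, Rbfox3 rose by 0.43 on the log2 scale against control (adjusted p = 0.00810), and of the astrocyte markers Gfap rose by 0.25 (adjusted p = 0.0281). The microglial gene C1qa rose by 0.76 (adjusted p = 0.0252), from 4.71 to 7.98 CPM. The progenitor gene Hes5 fell by 1.54 (adjusted p = 0.00612) and the proliferation gene Mki67 by 0.22 (adjusted p = 0.0449). Of the 6 neuronal markers 5 had log2 fold changes above 0, and Map2 gave -0.34 (adjusted p = 0.270). Of the 6 astrocyte markers 5 lay above 0, and Slc1a3 gave -0.30 (adjusted p = 0.514). Of the 6 microglial markers 4 lay above 0, with -0.13 for Aif1 and -0.04 for Csf1r, and 4 of the 6 progenitor markers lay below 0. In DCS against control 3 neuronal, 2 astrocyte and 5 microglial markers lay above 0, and 5 progenitor markers below 0. There C1qa gave 0.47 and Mki67 -0.14 (adjusted p = 0.692 for each). In ACS against DCS, Rbfox3 (adjusted p = 0.0486) and Hes5 (0.0208) passed, and Gfap (0.0730), C1qa (0.429) and Mki67 (0.547) did not. In edgeR no marker of interneurons or the oligodendrocyte lineage passed. Summed neuronal markers spanned 1998 to 2102 FPKM in control, 2027 to 2210 in DCS and 2134 to 2242 in ACS, and summed progenitor markers 123 to 128, 116 to 125 and 105 to 119. Their part in the differences of Camkv, Ppm1e, Creb1 and Hdac5 was not tested.

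The entries whose log2 CPM followed the 3 most abundant kinases most closely over the 9 libraries are given as a description, chosen from 13201 candidates that share library and depth. For Camk2b they were Idh3g (Pearson r = 0.988), Gnao1 (0.986) and Cyp46a1 (0.977). For Camk1 they were Lrp2 (0.932), Kcnj10 (0.901) and Atxn7l3 (0.897), and for Camkk2 they were Ecel1 (0.951), Bmf (0.920) and Plekhb1 (0.919). For Camk2g, added after its values were seen, they were Cdc37 (0.971), Dolk (0.962) and Ppp5c (0.956).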

How the data were processed

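Polyadenylated RNA was sequenced from 9 libraries in 3 groups of 3, assigned by their labels. The authors trimmed reads (cutadapt 1.9 in the submitters' processing notes, fastp in the paper), aligned them with HISAT2 2.0.4 and quantified genes with StringTie 1.3.4d. UMI-tools, DESeq2 and edgeR are also named in those notes, and the genome is called GRCh38 in the paper. FPKM and estimated counts, given as whole numbers, were deposited by the authors for each library.

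Counts were scaled by TMM, filtered by filterByExpr (minimum count 10, total 15; 16284 of 32623 entries kept) and tested in edgeR 4.0.16 (R 4.3.3) over all 9 libraries. The 95% intervals come from the same fit. Adjustment was over every tested entry, and entries with an adjusted p under 0.05 were called. Alternatives used DESeq2 1.42.0, limma 3.58.1 on log2(FPKM + pseudocount), other scalings and filters, counts divided by 4 (in case a fragment adds about 4 to a count), the 6 libraries of a comparison, symbols alone, the replicate block, and each library left out. The test was tried on simulated data. Precision is limited by 3 libraries a group.

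The members and lists were chosen with earlier results of these data known. The rule named all 10 kinases, called pathway genes or else the 2 of smallest p in ACS against control per role, the 3 entries most correlated with the most abundant kinases, and the leading and called markers. Calm3 and Rasgrf2 were not matched and Mylk3 was not tested. Promoter windows are from RefSeq GRCr8, whose coordinates are not those of the table. The list of excitatory neuron markers is not reported here.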

Additional observations from a re-analysis of the deposited data

How the results depend on the processing

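Of 630 values of the 10 kinases over 30 results and 21 alternatives, 593 kept direction and side of the threshold, 5 passed it and 32 changed sign. The 5 were Camk2b (ACS against control, without DCS 3) and Camk2g (ACS against DCS, 4 times). Kinases called in ACS against DCS numbered 1 with DESeq2, the 6 libraries alone and symbols alone, and 0 to 1 with a library left out, as in ACS against control. Pathway genes called in ACS against control (4) numbered 2 with no filter, 7 at a mean FPKM of at least 1, 14 with DESeq2, 2 with limma and no filter, 1 with 6 libraries, 7 with counts divided by 4, 8 with symbols alone, and 0 (without control 2) to 9 (without control 3) with a library left out. In ACS against DCS (2) they numbered 0 with no filter, limma and no filter, or 6 libraries, 6 with DESeq2, 1 with limma at either pseudocount, and 0 to 2 with a library left out. All entries called in ACS against control (678) numbered 1652 with DESeq2, 409 with limma and no filter, and 138 (without control 2) to 1431 (without control 3). In DCS against control (2) they numbered 38 with DESeq2, 1 with limma at log2(FPKM + 1), 6 libraries, counts divided by 4 or symbols alone, and 1 to 47 (without control 3). In ACS against DCS (103) they numbered 650 with DESeq2, 61 with limma at log2(FPKM + 0.1), 46 with limma and no filter, 160 with symbols alone, and 27 (without DCS 2) to 184 (without control 3). The cause of these shifts was not tested.

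The main fit did not pair libraries by replicate number. Deviations of same-numbered libraries correlated between -0.053 and 0.063. Different-numbered libraries were not compared, so these values cannot decide whether libraries shared a culture. With the replicate block, pathway calls were 2 in ACS against control and 0 in ACS against DCS, and all calls were 1 in DCS against control and 59 in ACS against DCS.

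Camk2d in ACS against control changed sign under median-of-ratios (-0.00043) and upper-quartile scaling (-0.0018), no filter (-0.0080), a mean FPKM of at least 1 (-0.0020), DESeq2 (-0.00015), limma (-0.011 in each form) and symbols alone (-0.0024), and Camk1g with counts divided by 4 (0.0020). With a library left out, ACS against control ranged from -0.014 to 0.15 for Camk2a, -0.046 to 0.054 for Camk2d, -0.053 to 0.033 for Camk1g and -0.027 to 0.080 for Camkk2. DCS against control ranged from -0.0075 to 0.073 for Camk4, -0.059 to 0.063 for Camk1d and -0.080 to 0.027 for Camkk2, and ACS against DCS from -0.019 to 0.066 for Camk4 and -0.059 to 0.032 for Camkk1. On the CPM scale, which ignores length, Camk2a was 3.57% of alpha plus beta and the 4 CaMKII genes summed to 612 CPM.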
